A study of Mus musculus with 12 samples.

Results

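Transcripts of skeletal muscle differed many-fold among 12 subcutaneous pancreatic tumors, and the 4 tumors richest in them were compared with the 4 poorest in them, across the rest of the transcriptome and whatever their doxycycline (dox) history. The tumors were ranked by the mean of log2(RPKM + 0.25) over 5 genes of skeletal muscle, namely Acta1, Ckm, Mylpf, Tnnt3 and Myh4. RPKM is the number of reads scaled to the exonic length of the gene and to the mapped reads of the library. The members were thus chosen by these measured marker levels. Of the 12 tumors, 8 entered the comparison and the 4 intermediate tumors were kept for reference. Because measured values chose the sets, the comparison between them is a description and carries no test. Standard errors given for differences between the sets describe the spread among the chosen tumors and are no measure of precision.

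All tumors grew from KCip53-1, a single line of mouse pancreatic cancer cells sorted for dsRed from a mouse tumor whose genotype included Ptf1a-Cre, TREp53R270H and R26rtTa/rtTa. Ptf1a-Cre acts in the pancreatic epithelium, and the dox-dependent activator rtTa drives the p53R270H transgene. For each tumor 500000 cells were injected under the skin of immunodeficient NSG mice of 8 to 10 weeks, a strain without mature lymphocytes or NK cells. The no-dox mice (n = 4 tumors) never received dox, the plus-dox mice (n = 4) had dox in their water (0.2 g/l in 5% sucrose) for 36 days, and the off-dox mice (n = 4) had it for 33 days, followed by 3 days of withdrawal. Whether the no-dox mice also drank sucrose is not given in the sources used here. Mice bore a pair of tumors each, but the pairs are not named. Dox was given to the whole mouse, so the tumors of a pair share their dox group. Wherever both tumors of a pair were sequenced, p-values between dox groups are too small. Trp53, which counts both the endogenous gene and the transgene, ranged from 40.1 to 57.4 RPKM over all 12 tumors with no separation by dox, so it does not check the labels. Gene counts summed to 19845923 to 33137609 reads per tumor. Their share of the mapped reads was 81.1% to 87.1% in the muscle-rich and 83.7% to 89.4% in the muscle-poor tumors, and its part in the results was not tested.

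A thin sheet of striated muscle, the panniculus carnosus, lies under the skin of the mouse, and it is built mostly of fast fibers. A muscle fiber contracts when calcium leaves the sarcoplasmic reticulum and lets myosin heads pull on actin filaments, and each fiber type carries its own myosin heavy chain: Myh4 in the fastest (IIb) fibers, Myh1 in IIx, Myh2 in IIa and Myh7 in slow fibers. Myh3 and Myh8 are the embryonic and neonatal chains, which return for a time when fibers regenerate under the control of factors such as Myog. The study scored invasion into muscle by subcutaneous tumors under the microscope. It reported such invasion in a larger share of tumors always on dox than of tumors never on dox. Whether the tumors sequenced here were among those scored is not given in the sources used here. The RNA came from whole, unsorted tumors, so a tumor with fewer muscle fibers and one with less RNA per fiber cannot be told apart.

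Promoters of 3 ranking genes and of Myh1 are shown because muscle genes are known for short binding motifs shared by their promoters. Windows of 300 bases around the transcription start were taken from RefSeq on GRCm38.p6, a later build than the mm9 of the deposited files. Shown 5′ to 3′ are Acta1 (chr8:123894726-123895025 (- strand)), Ckm (chr7:19410844-19411143 (+ strand)), Myh4 (chr11:67237562-67237861 (+ strand)) and, as the fiber-type neighbor of Myh4, Myh1 (chr11:67199852-67200151 (+ strand)). Capitals mark CANNTG, the E-box bound by factors of the Myod1 family, the CArG box of serum response factor and the box of MEF2 factors.
Acta1: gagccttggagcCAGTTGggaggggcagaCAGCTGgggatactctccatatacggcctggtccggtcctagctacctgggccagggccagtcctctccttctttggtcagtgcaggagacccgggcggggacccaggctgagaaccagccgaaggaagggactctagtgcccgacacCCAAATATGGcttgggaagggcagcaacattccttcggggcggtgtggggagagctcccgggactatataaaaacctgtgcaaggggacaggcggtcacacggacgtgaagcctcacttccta
Ckm: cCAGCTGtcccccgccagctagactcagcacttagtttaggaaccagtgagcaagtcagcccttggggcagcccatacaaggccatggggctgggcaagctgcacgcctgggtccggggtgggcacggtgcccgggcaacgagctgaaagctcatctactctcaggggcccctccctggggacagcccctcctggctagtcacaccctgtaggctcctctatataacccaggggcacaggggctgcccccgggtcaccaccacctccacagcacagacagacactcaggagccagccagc
Myh4: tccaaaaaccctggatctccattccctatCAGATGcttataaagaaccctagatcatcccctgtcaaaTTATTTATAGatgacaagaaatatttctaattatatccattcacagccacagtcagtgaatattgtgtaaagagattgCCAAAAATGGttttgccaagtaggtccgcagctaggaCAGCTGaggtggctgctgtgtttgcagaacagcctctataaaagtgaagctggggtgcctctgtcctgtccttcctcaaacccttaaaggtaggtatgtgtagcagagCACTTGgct
Myh1: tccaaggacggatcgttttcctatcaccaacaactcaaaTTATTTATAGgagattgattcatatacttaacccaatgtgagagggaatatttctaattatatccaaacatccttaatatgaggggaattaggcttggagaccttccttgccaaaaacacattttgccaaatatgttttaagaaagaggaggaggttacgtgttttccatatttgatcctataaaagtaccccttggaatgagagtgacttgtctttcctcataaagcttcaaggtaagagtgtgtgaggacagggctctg
In these letters Acta1 holds 2 E-boxes and 1 CArG box, Ckm 1 E-box, Myh4 3 E-boxes with 1 CArG and 1 MEF2 box, and Myh1 0 E-boxes and 1 MEF2 box. Of the 133 genes on the muscle lists or among the markers, 100 matched the promoter table. CAGCTG, a form of CANNTG and counted within it, stood on either strand in 44% of them and in 18.3% of the promoters of all 27025 genes. For CANNTG in any form the shares were 87.0% and 75.0%, for the MEF2 box 18.0% and 3.70%, for the CArG box 7.0% and 1.81%, and for TATAAA 24% and 15.7%. Of the muscle genes called higher in the comparison below, 33 had a promoter. Among these, CAGCTG stood in 45.5%, CANNTG in 81.8%, the MEF2 box in 18.2% and the CArG box in 6.06%. TATAAA stood in 12.1% of them, less than among all genes. A match describes the letters and is no evidence of binding.

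The mean over the 5 markers ran from 0.43 to 7.46 on the log2(RPKM + 0.25) scale. The muscle-rich set consisted of off-dox tumor 3 (7.46), off-dox tumor 2 (6.77), plus-dox tumor 2 (5.99) and plus-dox tumor 1 (4.69). The muscle-poor set consisted of no-dox tumor 3 (3.24), no-dox tumor 2 (2.95), off-dox tumor 4 (0.81) and no-dox tumor 4 (0.43). Between them lay plus-dox tumor 3 (4.41), plus-dox tumor 4 (4.01), no-dox tumor 1 (3.95) and off-dox tumor 1 (3.45). The limits of the sets thus fall in small gaps, 0.28 at the upper and 0.21 at the lower limit, within a range of 7.03. The values form a gradient with off-dox tumors near both of its ends. Since 3 of the 4 muscle-poor tumors and 0 of the 4 muscle-rich tumors were no-dox, muscle content and dox history cannot be told apart in this comparison. A second comparison therefore stayed within the 8 dox-exposed tumors, with the same muscle-rich tumors against plus-dox tumors 3 and 4 and off-dox tumors 1 and 4.

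Even at the top of the ranking the 5 markers took only 0.20% of the counted reads, and at the bottom 0.0011%. Ckm, the muscle creatine kinase that buffers ATP (chromosome 7 of mm9, 19996443 to 20006932), reached 172, 97.8, 73.8 and 29.0 RPKM in the muscle-rich tumors, in the order above. In the muscle-poor tumors Ckm held 10.1, 6.31, 1.84 and 0.71 RPKM. Mylpf, the regulatory light chain of fast myosin (chromosome 7, 134355122 to 134357801), had 27.5 to 208 RPKM in the first and 1.59 to 15.8 RPKM in the second set. Tnnt3, the fast troponin T (chromosome 7, 149684741 to 149701914), had 20.2 to 158 and 0.84 to 11.6 RPKM. Acta1, the actin of skeletal muscle thin filaments (chromosome 8, 126415667 to 126418636), had the highest mean RPKM of the 5, with 388, 172, 152 and 45.3 RPKM against 46.9, 22.3, 2.83 and 2.99 RPKM. For Acta1 the 2 sets overlapped, because no-dox tumor 3 slightly exceeded plus-dox tumor 1, while for the other markers they did not. Myh4, the heavy chain of the fastest fibers, had 77.4, 50.4, 33.3 and 14.9 RPKM in the muscle-rich and 0.56, 2.29, 0.84 and 0.14 RPKM in the muscle-poor tumors. These values chose the tumors and support nothing further.

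**Figure D1:**
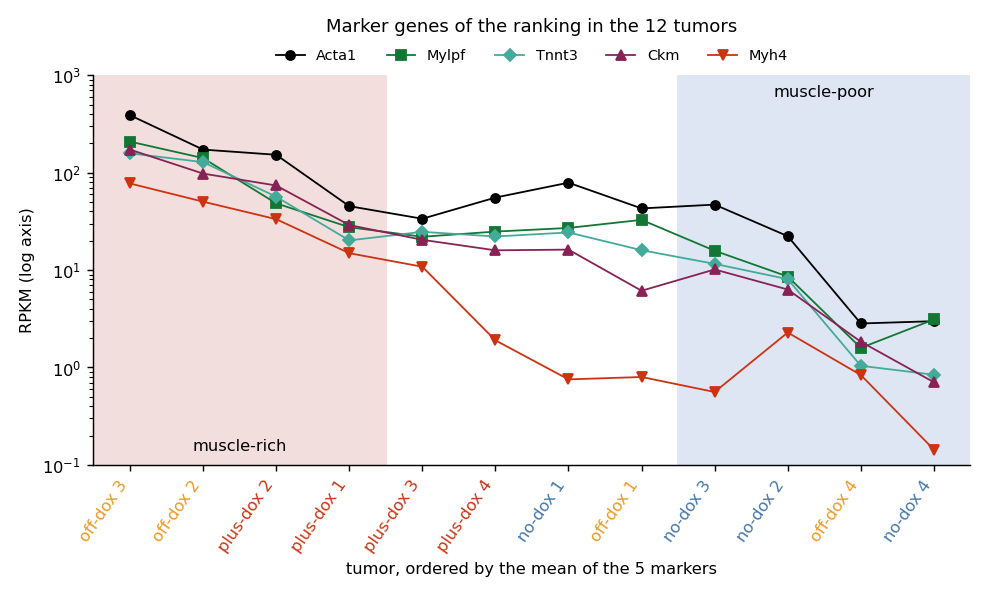
RPKM (log axis) of the 5 ranking genes in each of the 12 tumors, ordered from the highest to the lowest marker mean, with lines joining the values of 1 gene and tumor names colored by dox group. Myh4 separates from the other 4 markers between plus-dox tumor 4 and no-dox tumor 3, where it lies at 0.56 to 1.90 RPKM and Acta1 at 42.9 to 78.8 RPKM.

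Across 14581 other genes with a mean RPKM over 0.25, a gene was called where the 2 sets did not overlap and their means differed by more than 1 on the log2(RPKM + 0.25) scale, which understates the change of low genes. By this rule 98 genes (0.672%) were higher in the muscle-rich tumors and 0 (0%) were lower. Without the limit on size, 356 genes (2.44%) had every muscle-rich tumor above every muscle-poor tumor and 89 (0.61%) had the reverse. Of the 98 called genes, 49 stood on 1 of 10 muscle lists. The lists hold 128 genes of the files, of which 101 passed the RPKM filter, and a gene silent elsewhere can pass it through the muscle-rich tumors alone. Of the 101, 96 had a positive difference with a median of 1.57, beside 0.0060 over all genes. Within the dox-exposed tumors 38 genes (0.261%) were higher and 3 (0.0206%) lower. Of these 38 genes 21 stood on a muscle list, and the 101 muscle genes had a median difference of 1.15. The 2 comparisons share all 4 muscle-rich tumors and, in the lower set, off-dox tumor 4, so their calls are not independent.

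**Figure D2:**
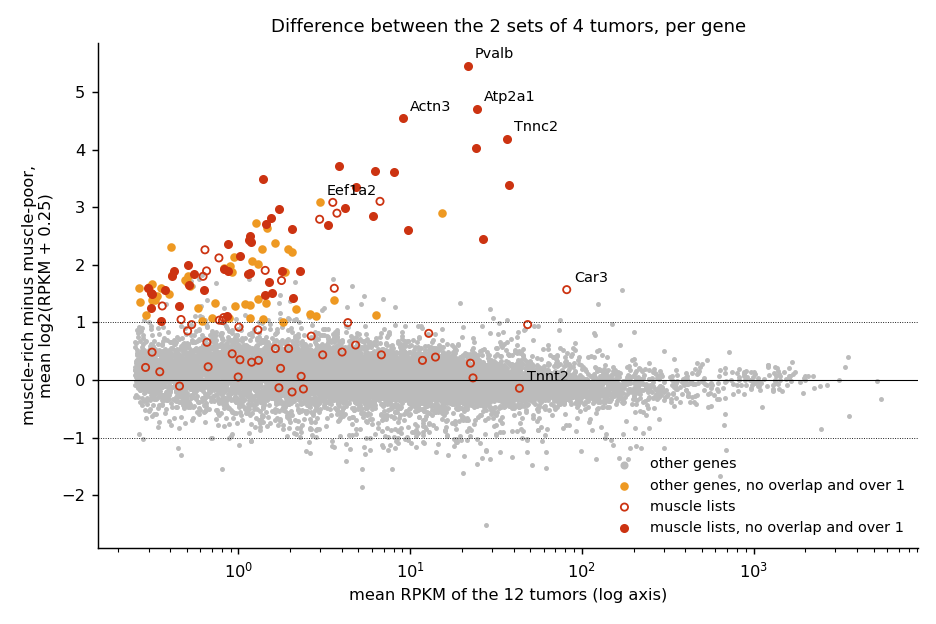
Difference between the mean log2(RPKM + 0.25) of the muscle-rich and the muscle-poor tumors (vertical axis) against the mean RPKM of the 12 tumors (log axis) for 14581 genes, with genes of the muscle lists in red (filled where called), other called genes in orange and the remaining genes in gray. Pvalb (5.45), Atp2a1 (4.71), Actn3 (4.55) and Tnnc2 (4.19) lie at the top, and every gene below −1 is a gray point whose 2 sets overlapped.

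The thin and thick filaments of fast fibers differed most as a group. Of the 7 genes on that list, which left out the markers, 5 were called, and the median difference was 3.38 (2.39 within the dox-exposed tumors). The ranking genes Mylpf, Tnnt3 and Myh4 are themselves filament genes of fast fibers. The lead of this list is therefore in part fixed by the choice of tumors. Actn3, the actinin that anchors thin filaments in fast fibers (chromosome 19, 4861223 to 4877884), had 40.4, 26.1, 16.9 and 8.52 RPKM in the muscle-rich tumors. In the muscle-poor tumors Actn3 had 0.86, 0.67, 0.67 and 0.32 RPKM, a difference of 4.55 on the log2 scale (standard error 0.51, n = 4 each). The lowest muscle-rich tumor thus held several times more Actn3 than the highest muscle-poor tumor. Tnnc2, the calcium sensor of the fast troponin complex, ranged from 22.6 to 147 RPKM against 0.99 to 13.2 RPKM (difference 4.19). Its partner Tnni2, the inhibitory subunit, ranged from 26.1 to 143 against 2.49 to 15.9 RPKM (difference 3.38), and Myl1, an essential light chain of fast myosin, from 14.9 to 108 against 0.87 to 7.39 RPKM (difference 4.03). Mybpc2, the fast myosin-binding protein C, differed by 2.60. Myh1 and Myh2 had positive differences of 3.08 and 1.80, yet in both genes the sets overlapped.

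Scaffold proteins of the sarcomere were called in 23 of 31 genes, with a median difference of 1.89. Des, desmin, which ties neighboring myofibrils together (chromosome 1, 75356919 to 75364290), had 120, 28.0, 36.5 and 22.4 RPKM in the muscle-rich and 18.0, 7.5, 3.92 and 5.15 RPKM in the muscle-poor tumors, a difference of 2.45 (standard error 0.71). Tcap, telethonin, which caps titin at the Z-disc, had 34.8, 14.5, 18.7 and 5.95 against 2.68, 2.45, 0.37 and 0.31 RPKM. Flnc, filamin C, was among the most abundant of the list but overlapped between the sets, at 5.55 to 10.5 and 3.82 to 10.6 RPKM. The highest value of Flnc belonged to off-dox tumor 4, the tumor second from the bottom of the ranking. Myoz1, a Z-disc protein of fast fibers, had the widest difference of the list (3.72), and titin itself (Ttn) differed by 1.84. Of the heart list only 2 genes passed the filter and 0 were called. Tnnt2, the troponin T of heart, stood at 25.9 to 84.2 RPKM in all 12 tumors with a difference of −0.14. Tnni3, the troponin I of heart, had a difference of 0.66 with overlap, at 0.76 to 1.13 RPKM in the muscle-rich and 0.13 to 0.88 RPKM in the muscle-poor tumors. The myosin of the heart, Myh6, did not exceed 0.06 RPKM.

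Genes of calcium release and membrane excitation gave 12 calls among 18, with a median difference of 1.83. The widest difference of the whole comparison was in Pvalb, parvalbumin, the buffer that clears calcium in the fastest fibers (chromosome 15, 78021548 to 78034586). It had 89.0, 98.2, 30.8 and 13.2 RPKM in the muscle-rich and 1.28, 1.66, 0.75 and 0.09 RPKM in the muscle-poor tumors, a difference of 5.45 (standard error 0.88). Atp2a1, the pump that returns calcium to the reticulum (chromosome 7, 133589422 to 133606587), had 99.4, 78.9, 51.5 and 15.5 against 4.01, 4.51, 0.84 and 0.37 RPKM, a difference of 4.71 (standard error 0.94). Casq1, which stores calcium, and Tmem38a, a cation channel of the reticulum, differed by 2.98 and 1.00, the second with overlap. Sln, sarcolipin, an inhibitor of the pump, did not follow the sets. Its level was 21.2 RPKM in off-dox tumor 3, but 0.24, 2.76 and 2.09 RPKM in the other muscle-rich tumors and 3.21, 2.30, 0 and 0.16 RPKM in the muscle-poor ones.

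Energy metabolism split by gene, with 7 calls among 19. Pygm, the glycogen phosphorylase of muscle, had 25.2, 17.7, 13.4 and 3.65 RPKM in the muscle-rich and 1.69, 1.75, 0.48 and 0.12 RPKM in the muscle-poor tumors. Cox6a2 and Ampd1, a cytochrome oxidase subunit and the AMP deaminase of muscle, differed by 3.34 and 3.49. Differences were smaller in Pfkm, the phosphofructokinase of muscle (0.81, without overlap), and in Ak1 (0.29) and Adssl1 (0.34), enzymes of adenine nucleotide balance, and Eno3, the enolase of muscle, overlapped (0.96). Car3, a carbonic anhydrase abundant in slow fibers and in fat, was the most abundant gene of the list. It had 66.2 to 76.9 RPKM in the muscle-rich tumors but 190, 20.3, 69.6 and 0.97 RPKM in the muscle-poor ones and 253 RPKM in no-dox tumor 1. Those tumors also differed in fat genes: the 8 adipocyte genes summed to 553, 33.3, 172 and 3.24 RPKM in the muscle-poor tumors, in the same order, and to 720 RPKM in no-dox tumor 1. The sums in the muscle-rich tumors were 65.6 to 317 RPKM, inside that range, and 0 of the 8 genes were called.

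Genes of the fiber surface and of the nerve contact gave fewer calls. Among 7 tested membrane genes 2 were called, among them Sgca, a sarcoglycan (1.29). Dmd, dystrophin, was at 1.48 to 1.57 RPKM in the muscle-rich and 1.02 to 3.52 RPKM in the muscle-poor tumors, and Dysf and Popdc3 overlapped as well. At the neuromuscular junction 0 of 5 genes were called, and Chrnb1, an acetylcholine receptor subunit, was at 15.4 to 28.0 RPKM in all 12 tumors with a difference of 0.04. The myogenic regulators gave 0 calls among the 4 that passed the filter, among them Mef2c (0.61), Six4 (0.46) and Cdh15 (−0.15). Pax7, which marks satellite cells, and Myf5 did not exceed 0.03 RPKM, and Myod1 did not exceed 0.11 RPKM. Myf6, the regulator kept by mature fibers, lay under the filter with 0.33 to 0.86 RPKM in the muscle-rich tumors and 0 to 0.11 RPKM in the muscle-poor ones.

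**Figure D3:**
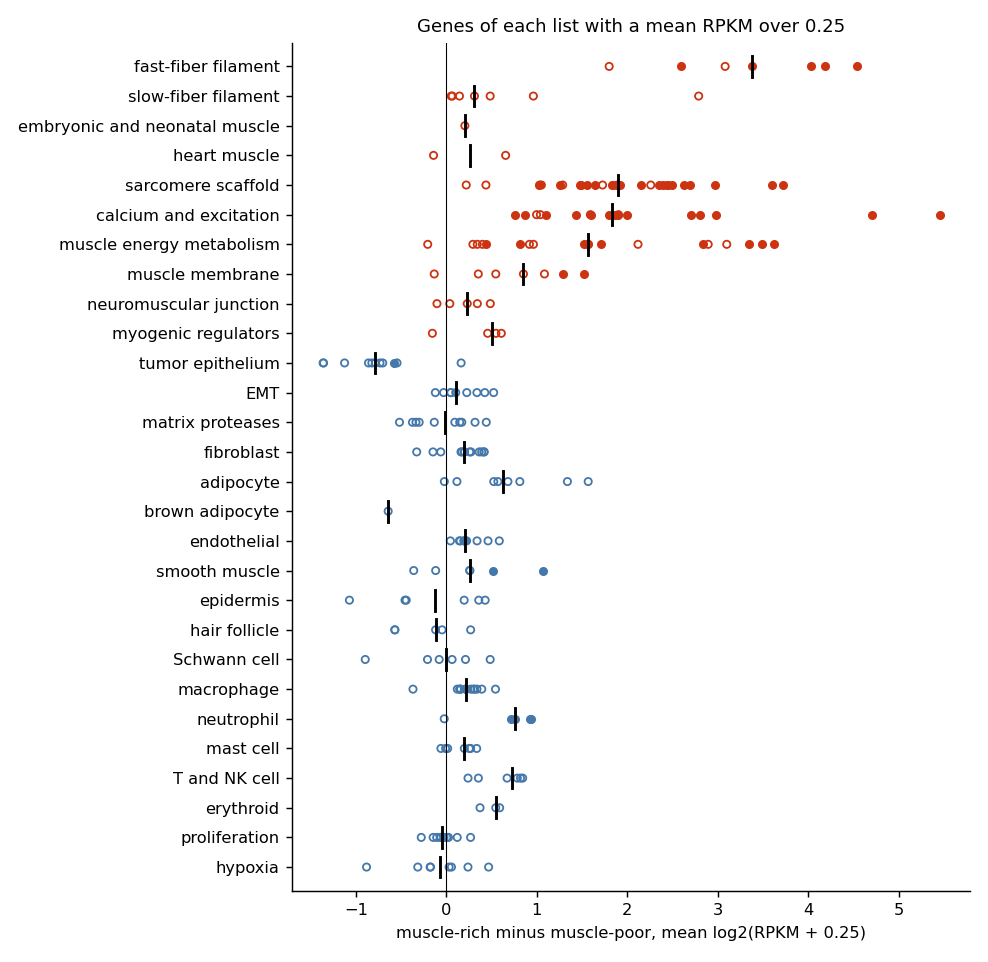
Difference between muscle-rich and muscle-poor tumors on the log2(RPKM + 0.25) scale (horizontal axis) for each gene that passed the RPKM filter, by list, with muscle lists in red and other lists in blue. Filled points are genes whose 2 sets did not overlap and bars are list medians. The fast-fiber list has its bar at 3.38 and the slow-fiber list at 0.31, a gap in part fixed by the fast-fiber genes in the ranking.

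Slow-fiber genes gave 0 calls among 7, with a median difference of 0.31 that turned to −0.18 within the dox-exposed tumors. Since fast-fiber genes were among those that ranked the tumors, the gap to the fast-fiber list is in part fixed by that choice. Mybpc1, a myosin-binding protein C, had a wide difference (2.79) with overlap, at 14.1, 6.70, 3.54 and 1.29 RPKM against 1.89, 0.76, 0.05 and 0.14 RPKM. The slow troponins did not follow the sets: Tnnc1 was at 1.47 to 2.80 and 1.6 to 2.64 RPKM, and Tnni1 and Tnnt1 differed by 0.05 and 0.31. Myh7, the slow myosin, was at 0.39 RPKM in off-dox tumor 3 and did not exceed 0.03 RPKM in the other 11 tumors. Myl2, a light chain of slow fibers and heart, reached 2.52 RPKM in off-dox tumor 3 and 0.26 RPKM or less elsewhere. Slow-fiber transcripts thus stood out in 1 of the 4 muscle-rich tumors, the one at the top of the ranking.

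The fast myosins split the tumors in another way than their total level. Counts on 6 skeletal myosin heavy chains (Myh1, Myh2, Myh3, Myh4, Myh7 and Myh8) ranged from 14853 in off-dox tumor 3 to 56 in no-dox tumor 4. Myh4 took 80.6% to 88.0% of them in the 4 muscle-rich tumors, but Myh4 was itself a ranking gene, so a high share there is in part fixed by the choice of tumors. Ranked without it, no-dox tumor 1, with 14.4% Myh4, took the place of plus-dox tumor 1, with 88.0%. In 4 tumors of the middle and lower ranking its share was far smaller: 27.7% in plus-dox tumor 4 (95% exact binomial interval 25.0 to 30.5), 14.4% in no-dox tumor 1 (12.3 to 16.6), 13.4% in off-dox tumor 1 (11.2 to 15.8) and 18.4% in no-dox tumor 3 (15.2 to 22). In these 4 tumors Myh1 led instead, with 61.5% to 79.3% of the summed RPKM of the 6 chains. A low total did not always come with a low share: no-dox tumor 2, with 542 counts, had 76.4% Myh4 (72.6 to 79.9) and off-dox tumor 4, with 161 counts, had 93.8% (88.9 to 97.0). Plus-dox tumor 3, with a higher total of 2531 counts, had 94.5% (93.5 to 95.4). The lowest tumor had 57.1%, with an interval from 43.2 to 70.3 that reflects its 56 counts. The intervals cover counting error only. The Myh1-led tumors came from all 3 dox groups. Myh1, Myh2, Myh3, Myh4 and Myh8 lie side by side on chromosome 11 (Myh4 at 67051531 to 67073948 and Myh1 at 67013616 to 67038077) and resemble each other closely, so reads may be split among them and the shares are uncertain.

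**Figure D4:**
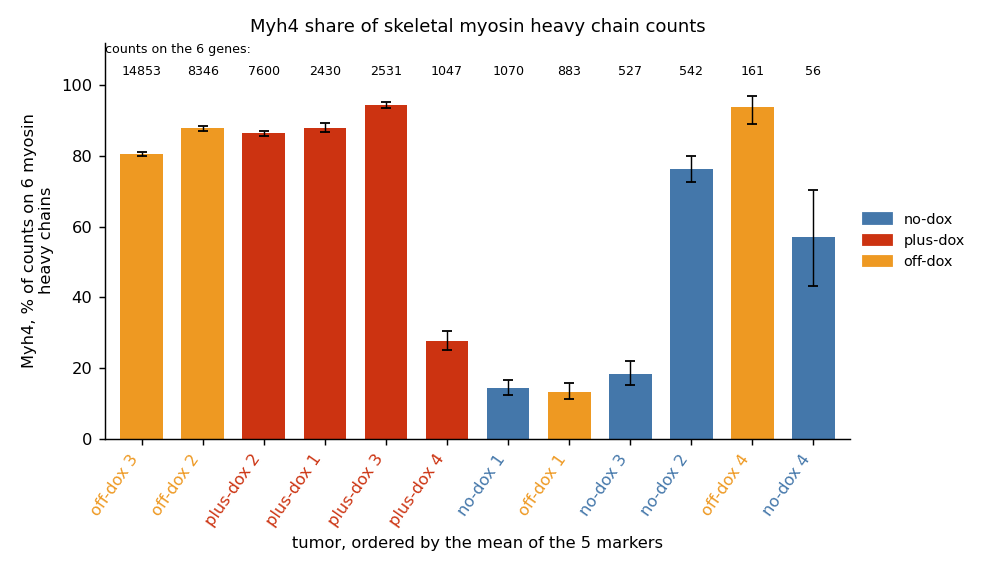
Share of Myh4 in the counts on 6 skeletal myosin heavy chain genes, in percent, for the 12 tumors in the order of the marker mean. Bars are colored by dox group, error bars are 95% exact binomial intervals and the numbers above are the summed counts. Bars lie between 13.4% and 27.7% in 4 tumors and at 57.1% or more in the other 8.

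A separate set of genes, some of them picked after their values were seen, was highest in off-dox tumor 1, an intermediate tumor with a low Myh4 share. Myog, a factor that starts fiber formation (chromosome 1, 136186581 to 136189125), was at 1.54 RPKM there and at most 0.23 RPKM in the other 11 tumors. Myl4, an embryonic and atrial light chain, was at 8.36 RPKM, followed by off-dox tumor 3 at 2.72 RPKM, with 0.67 to 1.39 RPKM elsewhere. Myh3 and Myh8 had 0.32 and 0.37 RPKM, and at most 0.05 and 0.06 RPKM in the other tumors. Actc1, an actin of developing muscle and heart, reached 0.97 RPKM against 0.17 RPKM at most elsewhere. Chrnd and Chrng, receptor subunits that spread over the membrane of immature or denervated fibers, had 0.60 and 0.30 RPKM. These levels are low, and all but Myl4 lay under the RPKM filter of the comparison. The slow troponins were highest in the same tumor, with 4.83 RPKM of Tnnc1, 4.14 RPKM of Tnnt1 and 3.38 RPKM of Tnni1, and so was Tmem8c, which fuses myoblasts, at 0.27 RPKM. The marker mean of this tumor was 3.45, next to the lower limit of the ranking. Not all related genes peaked there. Chrna1, another receptor subunit, was highest in a plus-dox tumor at 19.4 RPKM, with at most 9.19 RPKM in off-dox tumors. Myod1 (0.11 against 0.08 RPKM) and Musk (0.09 against 0.07 RPKM) were also highest in a plus-dox tumor.

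**Figure D5:**
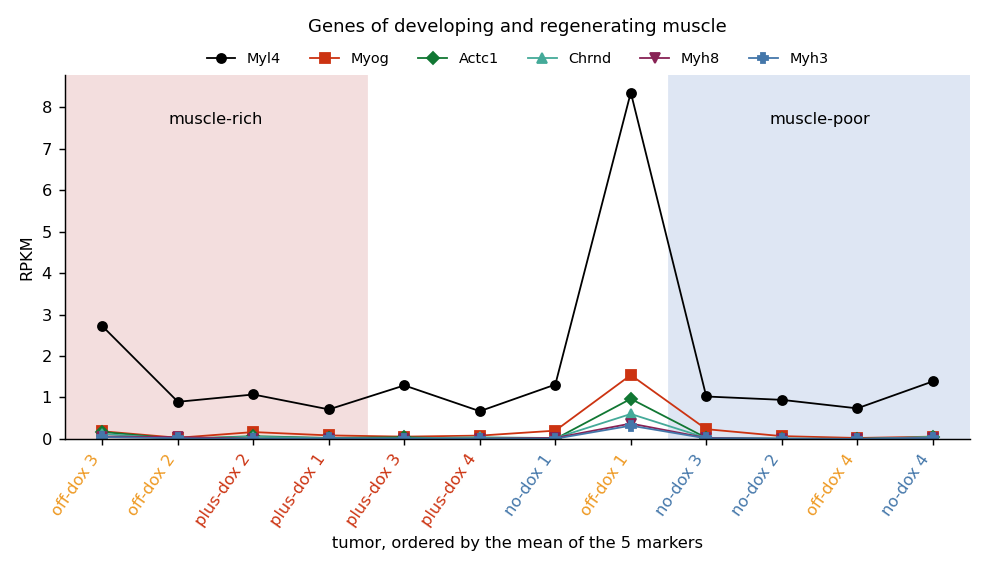
RPKM of 6 genes of developing or regenerating muscle in the 12 tumors, ordered by the marker mean, with lines joining the values of 1 gene. Each of the 6 genes peaks in off-dox tumor 1, where Myl4 is at 8.36 RPKM and Myog at 1.54 RPKM. Actc1 and Chrnd were picked after their values were seen.

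Outside the muscle lists, 49 genes were called higher in the muscle-rich tumors. The 8 widest differences were in Eef1a2, Ankrd23, Hfe2, Art1, Nrap, Ren1, Sh3bgr and Mylk2. Eef1a2, the elongation factor isoform of muscle and neurons (chromosome 2, 180882397 to 180891720), had 13.4, 4.97, 5.94 and 1.97 RPKM against 1.80, 0.75, 0.03 and 0.08 RPKM (difference 3.08, standard error 0.87). Ankrd23, a titin-associated repeat protein (chromosome 1, 36587379 to 36592574), had 58.0, 22.6, 33.6 and 14.3 against 6.85, 4.31, 2.24 and 2.41 RPKM (difference 2.90, standard error 0.55). Hfe2, hemojuvelin, a regulator of iron that muscle and liver express, differed by 2.73, Art1, a muscle ADP-ribosyltransferase, by 2.63, and Nrap, an anchoring protein related to nebulin, by 2.38. Mylk2, the myosin light chain kinase of skeletal muscle, differed by 2.28. Ren1 is to be set aside, since the files annotate it over only 9 bases, it has the near-identical copy Ren2, and it was listed at 0 in the 8 tumors outside the muscle-rich set. Of the 98 called genes 7 were annotated over 250 bases or less, 0 of them on a muscle list.

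Tumor cells, stroma and immune cells showed no call among their lists, with 1 exception. Genes of tumor epithelium (0 of 11 called) had a median difference of −0.79. Krt18, a keratin of simple epithelia (chromosome 15, 101858647 to 101862457), had 391, 614, 608 and 616 RPKM in the muscle-rich and 803, 791, 752 and 947 RPKM in the muscle-poor tumors, with no overlap and a difference of −0.58 (standard error 0.18), and it was 1 of the 89 genes with that order. Its partner Krt8 overlapped, at 318 to 588 and 525 to 973 RPKM, because of off-dox tumor 4. Of the 11 genes 1 had a positive difference, and within the dox-exposed tumors the median of the list was −0.83, while Krt18 overlapped there with a difference of −0.28. Epcam, an epithelial adhesion molecule, varied widely inside both sets. Plus-dox tumor 2 had 7.76 RPKM of Epcam and off-dox tumor 4 had 40.9 RPKM, beside 72.3 to 388 RPKM in the other 10 tumors.

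Fibroblast genes (0 of 13) had a median of 0.20 and Col1a1, the collagen chain at their head, was at 334 to 790 RPKM and 306 to 453 RPKM. Endothelial (0.20), macrophage (0.22) and mast cell genes (0.20), genes of epithelial-mesenchymal transition (0.10), matrix proteases (−0.02), proliferation (−0.04) and hypoxia (−0.07) had medians near 0, each with 0 calls. Epidermis (−0.12), hair follicle (−0.12) and Schwann cells (−0.01) did likewise, while adipocyte (0.63), T and NK cell (0.73) and erythroid genes (0.55) had larger medians, also with 0 calls. For brown adipocytes a single gene passed the filter (−0.64). In the smooth muscle list Synpo2, an actin-binding protein also found at the Z-disc of striated muscle, was the exception (1.07) and the other 5 genes were not called. Neutrophil genes formed no call by size, while 4 of 5 had every muscle-rich above every muscle-poor tumor, beside 356 (2.44%) of all 14581 genes. S100a8, a calcium-binding protein of neutrophils, had 13.3, 15.5, 16.5 and 15.8 RPKM in the muscle-rich and 9.53, 9.41, 6.72 and 6.28 RPKM in the muscle-poor tumors (difference 0.93, standard error 0.17). S100a9, Cxcr2 and Csf3r differed by 0.92, 0.76 and 0.71. Within the dox-exposed tumors all 4 genes overlapped and the median of the list went from 0.76 to 0.17. The no-dox share of the muscle-poor set cannot be told apart from muscle content for these genes.

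Whether muscle genes differed between the dox groups, which the labels define, was tested with edgeR over 17561 genes, and a gene was called at an adjusted p under 0.1 where it also changed by over 1.5-fold, exceeded 0.25 RPKM on average and was longer than 250 bp. The 3 comparisons share tumors. Every plus-dox tumor exceeded every no-dox tumor in the marker mean, with 4.01 as the lowest and 3.95 as the highest value, while off-dox tumors spanned 0.81 to 7.46. That order rested on Myh4: ranked without it, no-dox tumor 1 stood above plus-dox tumor 1 and took its place in the higher set. Between plus-dox and no-dox tumors 0 of 131 fitted muscle genes and markers were called, as were 0 (0%) of all genes, although 2400 of all genes had an unadjusted p under 0.05. The muscle genes had a median log2 fold change of 0.71 beside 0.01 for all genes, and 10 of them (7.63%, all higher) had an unadjusted p under 0.05 beside 13.7% of all genes. DESeq2 called 128 genes (0.729%) in that comparison, 116 (0.661%) of them higher, and 6 of the latter were muscle genes or markers. These were Actn3, Dysf, Igfn1, Jph1, Myh4 and Zmynd17. Between off-dox and plus-dox tumors edgeR called 0 muscle genes and 0 genes in all (537 with an unadjusted p under 0.05), and DESeq2 called 0 muscle genes and 6 genes (0.0342%) in all, 1 of them (0.00569%) higher.

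Between off-dox and no-dox tumors 5 of the 131 were called, all higher off dox, beside 235 (1.34%) of all genes, 181 (1.03%) of them higher. Actn3 had 40.4, 26.1, 4.22 and 0.67 RPKM in off-dox and 1.28, 0.86, 0.67 and 0.32 RPKM in no-dox tumors, sorted from high to low. The groups overlapped through off-dox tumor 4, and edgeR gave a log2 fold change of 4.53 (adjusted p = 0.088), with a standard error of 1.09 derived from its F statistic. Jph1, which joins the reticulum to the surface membrane, had 1.1 ± 0.50 and 0.36 ± 0.09 RPKM (SD, n = 4 each), with a log2 fold change of 1.63 ± 0.39 (SE, adjusted p = 0.087 in edgeR). Stac3, a protein of the calcium release complex, had 1.35 ± 0.84 and 0.44 ± 0.10 RPKM (log2 fold change 1.63 ± 0.43, adjusted p = 0.095 in edgeR). Zmynd17, which the energy list holds, had 1.93 ± 1.20 and 0.53 ± 0.14 RPKM (log2 fold change 1.88 ± 0.44, adjusted p = 0.087 in edgeR). Igfn1, a Z-disc protein, had 0.02 to 3.14 RPKM off dox and at most 0.0066 RPKM in no-dox tumors, so close to 0 that its fitted fold change is no bound and is not given (edgeR adjusted p = 0.096). All 5 genes were also higher on average in plus-dox than in no-dox tumors, and both comparisons use the same no-dox tumors. The plus-dox means were 8.63 RPKM in Actn3, 0.86 in Jph1, 0.78 in Stac3, 2.08 in Zmynd17 and 1.03 in Igfn1 (0 to 2.32). There edgeR called none of these genes, with log2 fold changes of 3.49 in Actn3, 1.26 in Jph1, 0.84 in Stac3 and 1.99 in Zmynd17. Of the 131 genes 63 (48.1%) had an unadjusted p under 0.05 beside 20.4% of all genes, and their median log2 fold change was 1.67 beside 0.0072. The count of 5 became 0 without any of no-dox tumors 1 to 4, plus-dox tumors 3 or 4 or off-dox tumors 2, 3 or 4, 3 without plus-dox tumor 1, 9 without plus-dox tumor 2 and 20 without off-dox tumor 1. DESeq2 called 33 muscle genes, all higher, beside 615 (3.5%) of all genes, 450 (2.56%) of them higher.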

How the data were processed

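RNA was sequenced from 12 whole tumors with polyA, unstranded libraries. Reads were aligned by the authors to mm9 (TopHat version 1.4.1, per the submitters' processing notes). The authors deposited, for 22630 genes, the expected count, which is the base-wise coverage of unambiguous exonic sequence in reads and need not be whole, and the RPKM. How multiply mapped reads were handled is not given in the sources used here, which leaves near-identical gene copies uncertain.

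Tumors were ranked and sets compared on log2(RPKM + 0.25) for 14581 genes averaging more than 0.25 RPKM. Expected counts, rounded to whole numbers, were tested between dox groups with edgeR (version 4.0.16), with TMM normalization, at least 10 summed counts, a quasi-likelihood test and Benjamini-Hochberg adjustment over 17561 genes. Alternatives were DESeq2 (version 1.42.0), RLE normalization, no filter, a replicate block, the marker mean as covariate and each tumor left out. For the ranking they were another pseudocount, scale, filter or set of ranking genes, 3 tumors a set, and dox-exposed tumors alone. The edgeR script was tested on simulated data with a single spread shared by all genes. That checks the code and not its power or error rate at the spread of these tumors. Standard errors of the edgeR fold changes are the absolute log2 fold change over the square root of the F statistic, since the test gives none. Intervals are exact binomial intervals.

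The markers, the sets and the 29 gene lists were chosen with earlier results of these data known. The genes named are the 5 markers, of each list up to 4 with the highest mean RPKM, the myosin heavy chains and the myogenic factors, the 8 widest differences outside the muscle lists (0 genes were called lower), muscle genes called between dox groups, and Trp53. Further genes were named after their values were seen, among them Pvalb, Myoz1, Myh6, Myl2, Actc1, Chrnd, Chrng, Tmem8c, Cox6a2, Ampd1 and the remaining list genes given with a difference only. Replicate tumors differed well beyond sampling noise. Of the list symbols 2 were found under an older symbol and Ly6g was not matched. Some items of the genotype and the gene lists are not reported here.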

Additional observations from a re-analysis of the deposited data

Results flagged for a closer look

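In each dox group of 4 tumors, the highest and the lowest value were set against the other 3, over 111 groups of values, for the markers, the gene lists and the myosin shares. Chance alone marks about 1 group in 20, or 5.55 here, and 6 values stood apart, so the number is close to what chance gives. The Myh4 share of the 6 myosin heavy chains was 27.7% in plus-dox tumor 4, beside 86.3% to 94.5% in the other plus-dox tumors, and 13.4% in off-dox tumor 1, beside 80.6% to 93.8% in the other off-dox tumors. The mean of the hair follicle list on the log2 scale was −1.02 in off-dox tumor 4, beside −1.64 to −1.59 in the other off-dox tumors, with Krt27 at 46.0 RPKM there. The endothelial list was at 2.76 in the same tumor, beside 2.32 to 2.39. The epidermis list was at 0.17 in plus-dox tumor 3, beside −0.24 to −0.19, and the T and NK cell list at 0.14 in plus-dox tumor 2, beside −0.37 to −0.30.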

How the results depend on the processing

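Of the 98 genes called higher in the muscle-rich tumors, the count was 52 with a pseudocount of 1, 55 with a mean RPKM over 1, 176 with the 3 highest against the 3 lowest tumors, 38 within the dox-exposed tumors, and 89 to 155 with each tumor left out. It was 97 when the tumors were ranked without Myh4, which put no-dox tumor 1 in place of plus-dox tumor 1, and 91 with an exonic length over 250 bases, 2 alternatives chosen after seeing the data. The count of 0 lower genes became 2 without the RPKM filter, 10 with 3 tumors a set, 3 within the dox-exposed tumors and 0 to 41 with each tumor left out, the highest without off-dox tumor 4. The 49 muscle genes became 32 with a mean RPKM over 1, 21 within the dox-exposed tumors and 45 to 63 with a tumor left out, the highest without plus-dox tumor 1. The difference between the sets in the median muscle gene was 1.64 and became 1.05 with a pseudocount of 1, 2.32 on log2 CPM with TMM or RLE factors, and 1.4 to 1.89 with a tumor left out.

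For off-dox vs no-dox tumors, 235 genes with edgeR became 615 with DESeq2, 122 without a filter, 0 with the marker mean as covariate (made of 5 of the tested genes, so that muscle differences are removed by construction) and 0 to 789 with a tumor left out, the highest without off-dox tumor 1. The 5 muscle genes became 33, 2, 0 and 0 to 20. For plus-dox vs no-dox tumors, 0 genes became 128 with DESeq2, 6 of them muscle genes, and 0 to 3 with a tumor left out (muscle genes 0 to 0). For off-dox vs plus-dox tumors, 0 became 6 with DESeq2 and 0 to 1 with a tumor left out.

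Equal tumor numbers did not pair the tumors. Over 14548 genes, deviations from the group means correlated at −0.09 on average over 12 pairs with the same number and at 0.04 over 36 pairs with different numbers. With the tumor number as a replicate block, edgeR called 0 genes and 0 muscle genes in all 3 comparisons. In none of the alternatives run did a called difference change sign. Between muscle-rich and muscle-poor tumors this was largely fixed in advance, because a call required sets without overlap. With fewer tumors of the same sets, another filter or another pseudocount the sign of such a gene cannot change. Causes of these shifts were not tested. The Myh4 share is least precise in off-dox tumor 4 and no-dox tumor 4, where the myosins had 161 and 56 counts.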

Other observations

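Slfn4, Cxcl2 and Xcl1, picked after their values were seen, were among the 98 called genes, while the macrophage, neutrophil, mast cell and T and NK cell lists gave 0 calls. Slfn4, a gene of activated macrophages, had 4.00 to 7.79 RPKM in the muscle-rich and 0.95 to 3.83 RPKM in the muscle-poor tumors. Cxcl2, a neutrophil-attracting chemokine, had 1.43 to 4.68 and 0.45 to 1.26 RPKM. Xcl1, a chemokine of T and NK cells, had 1.67 to 2.63 and 0.43 to 1.19 RPKM. Within the dox-exposed tumors the sets overlapped in all 3 genes, with the lower set at up to 4.79 RPKM of Slfn4, 2.22 RPKM of Cxcl2 and 1.95 RPKM of Xcl1.

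Fat and hair follicle genes varied widely within the sets. Of 8 adipocyte genes 7 had a positive difference, all with overlap, and the median of the list was 0.63, and 0.91 within the dox-exposed tumors. Cfd, adipsin, had 49.8 to 254 RPKM in the muscle-rich, 1.68 to 580 RPKM in the intermediate and 1.11 to 449 RPKM in the muscle-poor tumors, a difference of 1.57 (standard error 1.89). Krt71, a keratin of the hair root sheath, was at 13.4 RPKM in no-dox tumor 1 and at most 0.72 RPKM in the other 11 tumors.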
